A study of Homo sapiens with 24 samples.

Results

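K562 cells carrying the control guide sgGal4 were compared with themselves at 2 points of one time course, day 14 and day 3, through the RNA of their cytosol. The comparison rests on 4 of the 24 libraries of the study, taken by guide, assay and day: 2 RNA-seq libraries of day 14 and 2 of day 3. K562 is an established human chronic myelogenous leukaemia line with erythroid features, and here it carried a CRISPR interference system, a silencing system that doxycycline switches on and that a guide RNA steers to a promoter. Gal4 is a yeast transcription factor, and the guide named after it served as the control for sgDDX3, which is aimed at the RNA helicase gene DDX3X. The labels give 50 ng/ml doxycycline for every sample, day 0 included, and do not say whether the day 0 cells had received it. All cells were grown in DMEM with fetal bovine serum and antibiotics. Day 3 and day 14 therefore differ in time with doxycycline, time in culture and the handling of that day's cells, and these cannot be told apart. Nothing in the labels says that the 2 libraries of a day came from separate cultures, so p-values measure the spread between these libraries, which may be technical.

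The day 3 libraries held 43256563 and 12307651 counts and the day 14 libraries 10382024 and 30283898, and the 12 RNA libraries of the series ranged from 10266619 to 43256563. Levels are given as CPM, the counts of a gene relative to the total of its library, after scaling by the trimmed mean of M values. DDX3X, the target of the other guide, was at 185 and 174 CPM at day 3 and at 201 and 187 CPM at day 14, and did not pass the test (log2 difference 0.11 ± 0.10, SE; adjusted p = 0.714 by edgeR). Identity markers were checked first: of 14 listed for K562, among them the erythroid factor GATA1 and the fetal globins, 13 were tested and 0 passed, and their summed level was 3440 and 3510 CPM at day 3 and 3490 and 3500 CPM at day 14. Markers of other cell types were also followed. The 9 myeloid markers summed to 177 and 143 CPM at day 3 and 160 and 174 CPM at day 14, with MPO at 0 counts in these 4 libraries. The 8 lymphoid markers summed to 8.62 and 7.41 CPM and then 9.81 and 9.76 CPM, with CD2 and MS4A1 at 0. The 8 megakaryocyte markers summed to 18.9 and 17.1 CPM and then 24.4 and 23.9 CPM, with PF4 and PPBP at 0. The 10 fibroblast and epithelial markers summed to 196 and 195 CPM and then 217 and 214 CPM, with COL1A2 and COL3A1 at 0. Of these lists 5 myeloid, 3 lymphoid, 2 megakaryocyte and 5 fibroblast and epithelial markers were tested, and none passed. The last 3 sums did not overlap between the days. The share of all genes that separate in this way was not counted, so no shift is read from it. The part of these sums in the results below was not tested.

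Few RNAs differed between the 2 days. Of 18287 genes tested, 138 passed (0.755%), of which 119 were higher at day 14 (0.651% of those tested) and 19 lower (0.104%). At an unadjusted p under 0.05, 2175 genes passed (11.9%). The median log2 difference over all genes tested was -0.01. Changes upward were also the larger ones: 49 genes rose by at least 1 on the log2 scale, and 1 gene, the olfactory receptor pseudogene OR2W6P, fell by as much (log2 difference -1.17; a gene singled out after its value was seen). Of the genes that passed, 86 of those that rose and 17 of those that fell were protein coding. Most calls were upward in each alternative, but the count moved. It was 77 without day 14 replicate 1, 65 without day 14 replicate 2, 65 without day 3 replicate 1 and 81 without day 3 replicate 2, and the fit of the 6 sgGal4 libraries alone called 764 (461 higher and 303 lower), which included all 138.

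**Figure D1:**
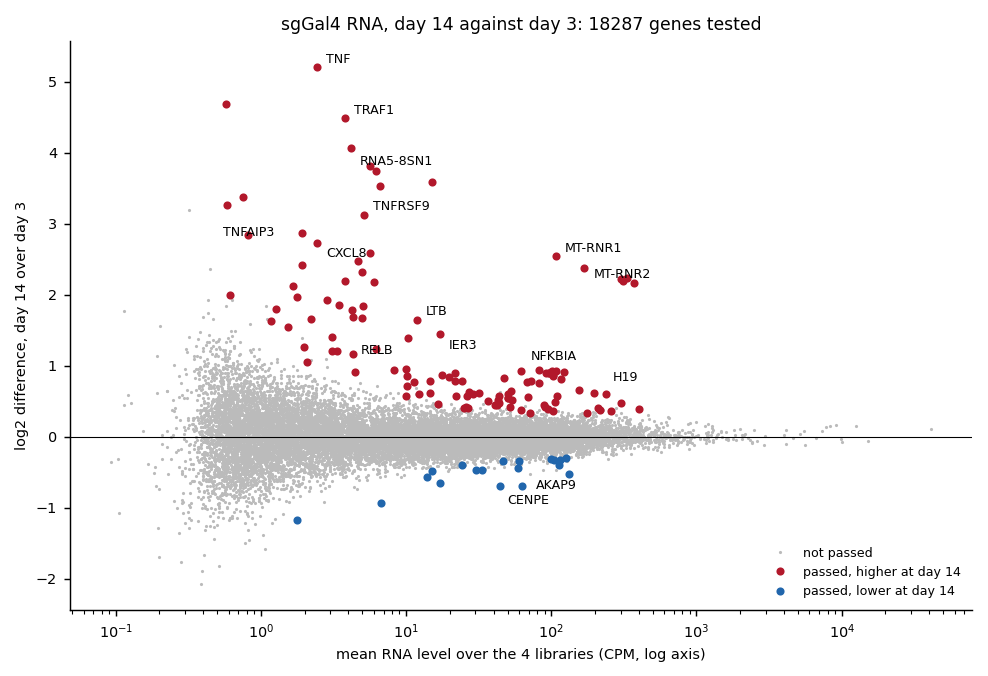
Each point is a gene, placed by its mean RNA level over the 4 sgGal4 libraries (CPM, log axis) and its log2 difference, day 14 over day 3. Most of the 18287 points lie around 0 and are grey; the 119 genes that passed and were higher (red) reach 5.21 (TNF), and the 19 that were lower (blue) reach -1.17.

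A group that stood out was that of NF-kB target genes, on a list chosen with earlier results of these data known. NF-kB is a family of transcription factors, made of RELA, RELB, REL and the products of NFKB1 and NFKB2, which inhibitor proteins such as IkB-alpha (the product of NFKBIA) hold in the cytoplasm. Signals from TNF-family receptors, interleukin-1 or microbial products lead to breakdown of the inhibitor, and the freed factor binds kappaB sites in promoters of cytokine, survival and adhesion genes. Several targets, NFKBIA and TNFAIP3 among them, encode brakes on the pathway.

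The promoters of 5 of the genes that rose are shown, because each holds a match to the consensus kappaB site, a sequence of 10 bases, in the 250 bases before the transcription start. Capitals mark the matches, found on either strand, and each line runs 5′ to 3′ on the gene's strand (RefSeq, GRCh38.p14).
NFKBIA promoter, chr14:35404750-35404999, minus strand: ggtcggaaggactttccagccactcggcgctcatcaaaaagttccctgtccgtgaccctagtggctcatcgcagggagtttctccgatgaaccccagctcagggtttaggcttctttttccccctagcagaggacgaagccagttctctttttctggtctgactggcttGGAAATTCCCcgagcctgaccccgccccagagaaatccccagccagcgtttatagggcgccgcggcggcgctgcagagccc
TNFAIP3 promoter, chr6:137867009-137867258, plus strand: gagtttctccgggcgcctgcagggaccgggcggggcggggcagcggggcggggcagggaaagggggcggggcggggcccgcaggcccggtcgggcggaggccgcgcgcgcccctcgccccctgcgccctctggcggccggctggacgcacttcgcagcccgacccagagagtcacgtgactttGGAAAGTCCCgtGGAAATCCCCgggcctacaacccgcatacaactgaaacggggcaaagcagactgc
BIRC3 promoter, chr11:102317234-102317483, plus strand: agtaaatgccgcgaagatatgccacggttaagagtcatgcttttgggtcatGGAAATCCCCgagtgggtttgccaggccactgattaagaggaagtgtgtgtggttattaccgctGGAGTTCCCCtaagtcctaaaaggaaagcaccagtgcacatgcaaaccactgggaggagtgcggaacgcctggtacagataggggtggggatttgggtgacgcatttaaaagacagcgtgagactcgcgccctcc
LTB promoter, chr6:31582425-31582674, minus strand: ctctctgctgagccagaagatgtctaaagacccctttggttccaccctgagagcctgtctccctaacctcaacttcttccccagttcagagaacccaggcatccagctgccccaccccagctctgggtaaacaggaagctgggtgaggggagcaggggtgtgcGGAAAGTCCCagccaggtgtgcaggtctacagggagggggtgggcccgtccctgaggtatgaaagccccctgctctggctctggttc
TNFRSF9 promoter, chr1:7940840-7941089, minus strand: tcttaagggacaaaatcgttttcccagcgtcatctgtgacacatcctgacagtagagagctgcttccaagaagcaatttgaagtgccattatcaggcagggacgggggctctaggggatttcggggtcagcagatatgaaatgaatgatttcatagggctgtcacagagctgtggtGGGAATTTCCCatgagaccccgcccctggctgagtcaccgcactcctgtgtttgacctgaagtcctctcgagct

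NFKBIA holds 1 match, starting 81 bases before the start site. TNFAIP3 holds 2, at 67 and 55 bases, and BIRC3 holds 2, at 199 and 135 bases. LTB holds 1, at 87 bases, and TNFRSF9 has 2 that overlap by all but 1 base, at 74 and 73 bases. Among the 11023 genes tested that had a promoter entry, 7.57% held such a match. It was held by 6 of the 11 tested NF-kB targets with an entry (54.5%: NFKBIA, NFKB1, NFKB2, TNFAIP3, BIRC3 and CD83), by 15 of 68 genes that rose (22.1%) and by 1 of 17 that fell (5.88%). A match is a description of these letters: NFKB1 and CD83 held one and did not pass in RNA, while TNF, TRAF1, CXCL8, ICAM1 and BCL3 held none in this window and rose. LTB and TNFRSF9 were added to the display after their values were seen.

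Of the 15 genes of the NF-kB list, 12 were tested, and 10 of these rose and 0 fell, against 0.651% of all genes that rose. The median log2 difference of the 12 was 1.16, against -0.01 over all genes tested. Part of the list passed the low-count filter through its day 14 level alone, so the members already present at day 3 were also counted by themselves. Of the 8 members at or above the filter's 0.69 CPM in both day 3 libraries, whose median was 0.86, 6 rose, against 0.64% of the 16097 genes at that level. IL1B, CCL2 and CCL3 were not tested, since they had between 0 and 11 counts in each of the 4 libraries. The list's summed level was 155 and 142 CPM at day 3 and 280 and 270 CPM at day 14.

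**Figure D2:**
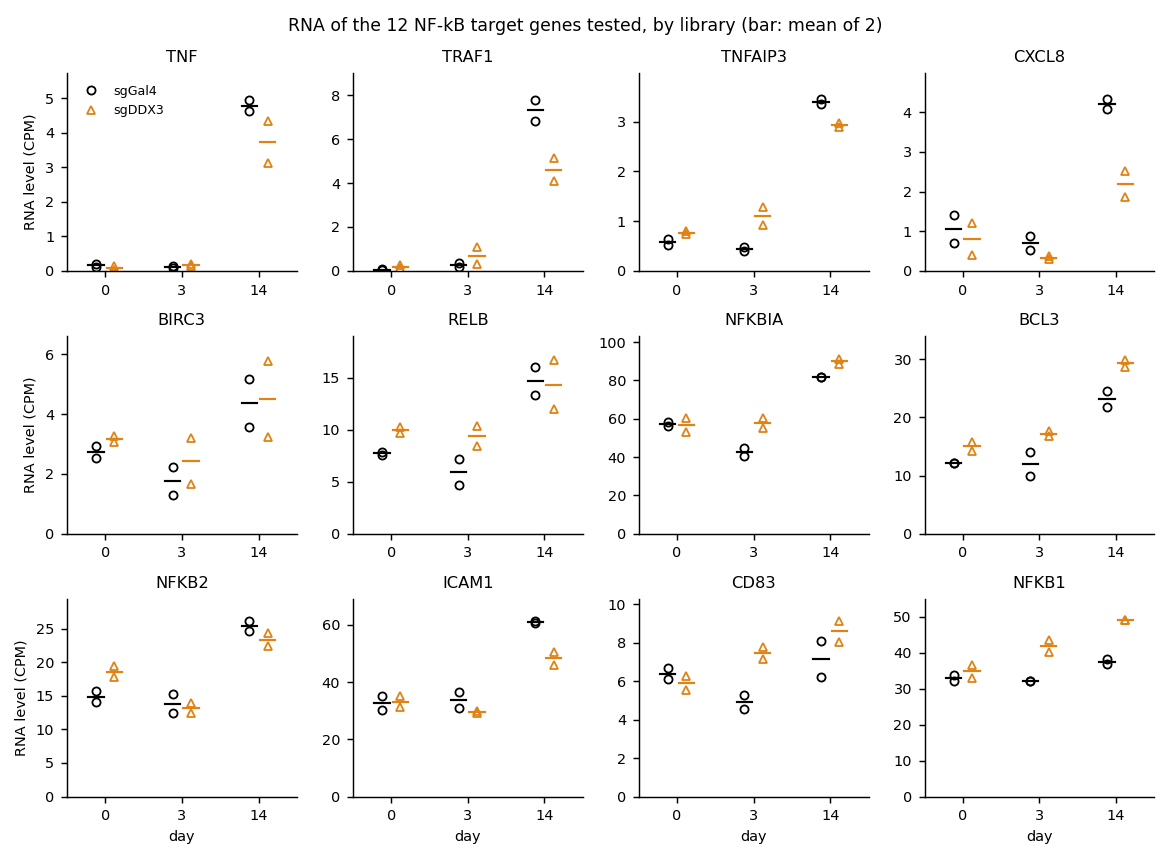
RNA level in CPM (linear axes that start at 0) of the 12 tested NF-kB targets in each library of days 0, 3 and 14; circles are sgGal4, triangles sgDDX3, and bars the mean of 2 libraries. For NFKBIA, for example, the sgGal4 circles lie at 81.8 and 82.0 CPM at day 14 against 44.7 and 40.7 CPM at day 3. NFKB1 and CD83 did not pass the test in sgGal4.

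The cytokine TNF, which both results from and triggers NF-kB signalling, was close to absent at day 3, with 6 counts and 1 count, and had 48 and 151 counts at day 14. Its levels were 0.137 and 0.0805 CPM at day 3 and 4.62 and 4.96 CPM at day 14. The fitted log2 difference was 5.21 ± 0.40 (SE; adjusted p = 9.8e-08), and its exact size rests on those few day 3 counts. The second cytokine of the list, the neutrophil attractant CXCL8, was at 0.524 and 0.886 CPM at day 3 and at 4.33 and 4.08 CPM at day 14 (2.73 ± 0.37; adjusted p = 0.000126). Its libraries did not overlap between the days, but the call was lost without sgGal4 day 3 replicate 1 (log2 difference 2.23, adjusted p = 0.0723). Even at day 14 neither gene exceeded 4.96 CPM.

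Signalling adaptors and survival genes rose as well. TRAF1, an adaptor of TNF receptors, had 16 and 2 counts at day 3 and 81 and 208 at day 14. That is 0.365 and 0.161 CPM against 7.79 and 6.84 CPM, a log2 difference of 4.49 ± 0.36 (adjusted p = 1.6e-07). BIRC3, an inhibitor of apoptosis that binds TRAF proteins, was at 1.28 and 2.25 CPM at day 3 and 5.19 and 3.58 CPM at day 14 (1.41 ± 0.31; adjusted p = 0.0294). Although its day 14 values lay above those of day 3, its replicates spread widely, and the call was lost without day 14 replicate 1 or 2, without day 3 replicate 1 (log2 difference 0.88), and with the replicate number as a block (adjusted p = 0.0626).

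Feedback inhibitors of the pathway were among the members that passed. NFKBIA was at 44.7 and 40.7 CPM at day 3 and at 81.8 and 82.0 CPM at day 14, 1.92-fold higher (log2 difference 0.93 ± 0.08; adjusted p = 6.1e-07). TNFAIP3, whose product A20 is a ubiquitin-editing enzyme that restrains TNF signalling, was at 0.479 and 0.403 CPM and then 3.46 and 3.35 CPM (2.87 ± 0.31; adjusted p = 7.0e-06). For NFKBIA the gap between the days was many times the gap between replicates. TNFAIP3 was below the filter's 0.69 CPM in both day 3 libraries, so its values there rest on low counts. BCL3, an IkB-family protein that works in the nucleus, was at 14.0 and 9.98 CPM and then 24.6 and 21.8 CPM (0.87 ± 0.12).

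Of the NF-kB subunit genes, the list held RELB, NFKB2 and NFKB1, while RELA and REL were not on it. RELB and NFKB2, of the non-canonical arm, rose. RELB was at 5.94 ± 1.73 CPM (SD, n = 2) at day 3 and 14.7 ± 1.78 CPM at day 14, with no overlap (by edgeR, 1.39 ± 0.18; adjusted p = 7.1e-05). NFKB2, which encodes its partner p100, was at 15.3 and 12.4 CPM and then 24.7 and 26.1 CPM (0.84 ± 0.11; adjusted p = 0.000122). NFKB1, of the canonical arm, was at 32.2 and 32.1 CPM and then 38.2 and 36.7 CPM. These groups do not overlap either, but NFKB1 did not pass (0.21 ± 0.08; adjusted p = 0.32). The adhesion molecule ICAM1 was at 36.6 and 30.8 CPM at day 3 and 61.2 and 60.6 CPM at day 14 (0.83 ± 0.10; adjusted p = 1.7e-05). CD83, a surface marker of activated dendritic cells, did not pass (4.54 and 5.31 against 8.08 and 6.21 CPM; 0.52 ± 0.17; adjusted p = 0.202).

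The day 0 libraries of the same guide place day 3 in time, though every comparison with them shares libraries with the one above. NFKBIA was at 56.1 and 58.3 CPM at day 0, above both day 3 libraries (day 3 over day 0, log2 difference -0.41; adjusted p = 0.00566) and below both day 14 libraries (day 14 over day 0, 0.52; adjusted p = 0.000279). It was the 1 member of the list that passed from day 0 to day 3, and it fell, while the median of the 12 from day 0 to day 3 was -0.35. From day 0 to day 14, 9 of the 12 members rose and 0 fell, with a median of 0.90, where 7.7% of all genes rose and 8.55% fell. The 12 include members that passed the low-count filter through their day 14 level alone. From day 0 to day 3, 5.68% of genes passed, 3.41% higher and 2.27% lower. TNF was at 0.118 and 0.214 CPM at day 0 and TRAF1 at 0.059 and 0.0712 CPM, below their day 14 levels in both libraries.

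Further secreted and immune molecules outside the list rose. LTB, the lymphotoxin beta of the TNF family that signals to the non-canonical arm, was at 6.06 and 4.91 CPM and then 19.4 and 16.6 CPM (1.64 ± 0.14; adjusted p = 5.2e-07).

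The other immune genes given here were chosen after their values were seen, from the genes that passed. The TNF receptor family member TNFRSF9 (4-1BB) was at 0.912 and 1.29 CPM at day 3 and 10.3 and 7.89 CPM at day 14 (3.12 ± 0.27). CD69, an early activation marker of leukocytes, was at 1.39 and 1.29 CPM and then 6.15 and 6.31 CPM (2.19 ± 0.23). EBI3, a cytokine subunit (2.47 ± 0.25), IL32 (1.67 ± 0.19), the receptor chain IL2RG (0.94 ± 0.16) and NFKBIZ, an IkB-family regulator (0.60 ± 0.10), were higher as well. These calls held in the alternatives tried. Other immune genes that passed, TNFRSF4, GBP2, CCL3L3 and CCL4L2, each lost their call in 1 or more of the alternatives. Over the same days the sum of the 8 lymphoid markers moved from at most 8.62 to at least 9.76 CPM. Only 3 of the 8 were tested, and none of these passed.

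Immediate early genes, which answer growth factor signals within minutes to hours, rose in part. Of 22 on the list 20 were tested, 5 rose (25%, against 0.651% of all genes) and 0 fell, with a median of 0.33 (all genes, -0.01). IER3, a stress-inducible regulator of survival that is also an NF-kB target, was at 9.39 and 8.62 CPM at day 3 and 26.1 and 23.9 CPM at day 14 (1.44 ± 0.13; adjusted p = 7.6e-07). The zinc finger factors EGR3 (1.84 ± 0.20), KLF6 (0.64 ± 0.08) and EGR1 (0.57 ± 0.08) passed too. EGR1 was at 91.5 and 83.0 CPM at day 3, 140 and 122 CPM at day 14, and 120 and 122 CPM at day 0, so that its day 14 level did not pass against day 0 (0.11; adjusted p = 0.45). The fifth was the AP-1 subunit JUNB (0.57 ± 0.13; adjusted p = 0.03), which lost its call without day 14 replicate 1 or 2, or day 3 replicate 1. With the sgGal4 libraries alone 10 of the 20 rose, in a fit that called 461 genes higher in place of 119.

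Among 12 ERK feedback genes tested, DUSP5, a phosphatase of nuclear ERK, rose (6.58 ± 1.11 CPM, SD, against 13.4 ± 1.3 CPM; log2 difference 0.95 ± 0.15, SE) and the median was 0.04. Of 16 p53 targets tested 2 rose (12.5%, against 0.651% of all genes), with a median of 0.07 (all genes, -0.01). BTG2, an antiproliferative cofactor of mRNA deadenylation, was at 88.0 and 80.7 CPM and then 151 and 145 CPM (0.81 ± 0.07; adjusted p = 9.2e-07). The cyclin-dependent kinase inhibitor CDKN1A was at 2.51 and 2.74 CPM and then 6.44 and 5.42 CPM (1.17 ± 0.23; adjusted p = 0.00899). The CDKN1A call was lost without day 14 replicate 1 or 2, or day 3 replicate 1. Other members of the list, such as the pro-apoptotic BBC3 (0.35, adjusted p = 0.0767 by edgeR), did not pass. The part of p53 in these changes was not tested.

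Single members of further lists rose, where 0.651% of all genes rose. The list medians were 0.01 for lysosome and autophagy, -0.05 for polyamine metabolism and 0.07 for actin and adhesion. The autophagy receptor SQSTM1 (p62) was at 62.3 and 60.1 CPM at day 3 and 104 and 102 CPM at day 14 (0.75 ± 0.08; adjusted p = 6.4e-06), 1 of 31 lysosome and autophagy genes. SAT1, which acetylates polyamines for export or breakdown, was at 19.7 and 15.2 CPM and then 31.2 and 30.6 CPM (0.78 ± 0.11), 1 of 10 genes of polyamine metabolism. The actin crosslinker FLNA was at 121 and 119 CPM and then 187 and 191 CPM (0.66 ± 0.08), 1 of 25 actin and adhesion genes. MSN, which ties actin to the membrane, was among the genes that gained most CPM (259 and 246 against 349 and 358 CPM; 0.48 ± 0.09). The MSN call was lost without day 14 replicate 2 or day 3 replicate 2. H19, an imprinted non-coding RNA, was at 184 and 193 CPM at day 3 and 292 and 278 CPM at day 14 (0.60 ± 0.07; adjusted p = 2.8e-05), and at 246 and 258 CPM at day 0.

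Most lists held no gene that passed. Of the 49 lists examined, 36 had no member that passed. Among them were the globins (0 of 7; median 0.13), heme synthesis (0 of 14; median 0.00), erythroid regulators (0 of 18; -0.04), S phase genes (0 of 41; 0.01) and histones (0 of 44; 0.03). The same held for stress response regulators (0 of 16; 0.05), tRNA synthetases (0 of 20; 0.01), ribosomal proteins of either subunit (large, 0 of 47; small, 0 of 32), nuclear oxidative phosphorylation (0 of 76), the proteasome (0 of 31), glycolysis (0 of 21; 0.12) and interferon response genes (0 of 20; 0.08). A missed threshold does not show that these genes were alike at the 2 days. The medians of the lists just given lay between -0.04 and 0.13, and those of all 36 ranged from -0.10 (iron handling, 17 tested) to 0.34 (megakaryocyte markers). The 6 tested megakaryocyte markers, from a longer list of 17, were each higher, by 0.23 to 0.48, with a smallest adjusted p of 0.16 by edgeR. The medians were 0.17 for lymphoid markers, from a longer list of 11, and 0.14 for markers of adherent cells. In each of these 5 were tested, and the part of these shifts in the other results was not tested. Acetylcholinesterase, ACHE, the 1 gene of 22 on the red cell membrane list that passed (1.26 ± 0.28), and the peptide loading factor TAPBP, 1 of 12 antigen presentation genes (0.36 ± 0.08), lost their calls without any 1 of the 4 libraries.

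**Figure D3:**
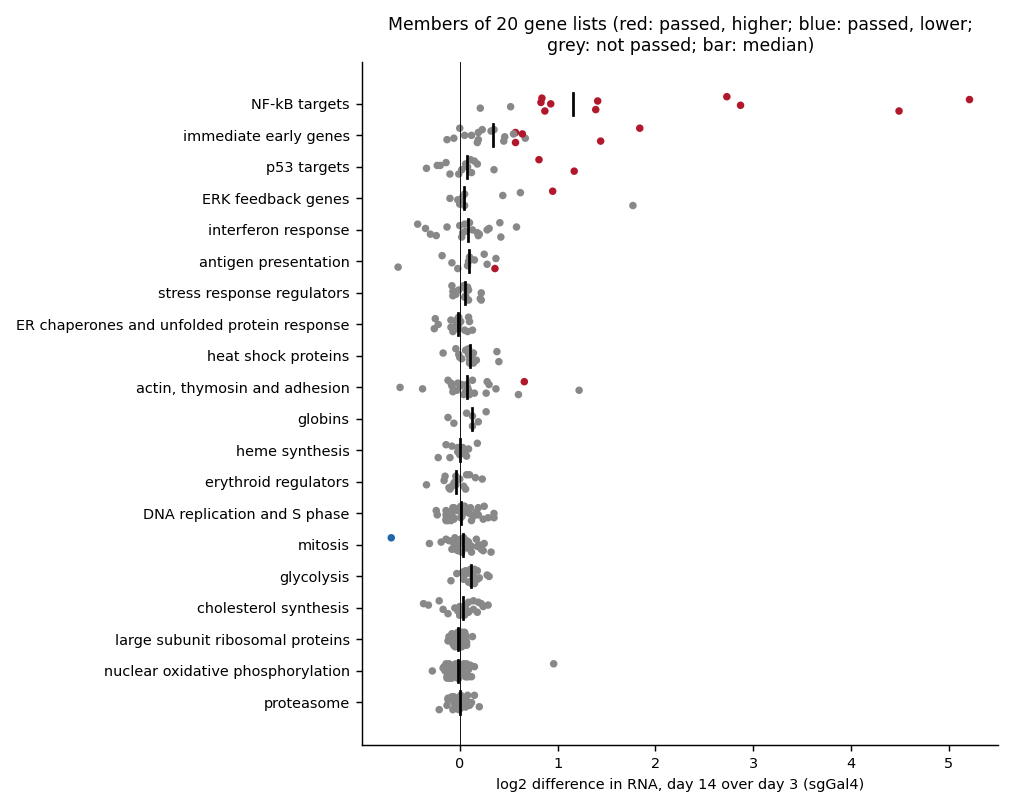
Points are the tested members of 20 gene lists, placed by their log2 difference in RNA, day 14 over day 3 (sgGal4); red points passed and were higher, blue passed and were lower, and bars are medians. The 12 tested NF-kB targets have their median at 1.16 (0.86 for the 8 at or above the filter's level at day 3) and the immediate early genes at 0.33, while the globins, ribosomal proteins and proteasome subunits lie around 0.

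The genes that fell did so by small amounts. The largest differences under the naming rule were those of CENPE, a kinesin of the mitotic kinetochore, with 66.5 and 43.5 CPM at day 3 and 29.7 and 38.2 CPM at day 14 (log2 difference -0.70 ± 0.16; adjusted p = 0.0434), and of AKAP9, a scaffold of the centrosome and Golgi, with 88.5 and 65.7 against 44.4 and 51.3 CPM (-0.69 ± 0.14; adjusted p = 0.0126). The ciliary and centrosomal protein CEP290 was at 23.1 and 18.3 CPM and then 13.5 and 13.6 CPM (-0.65 ± 0.12). For all 3 the first day 3 library, the deepest of the 4, was well above the second. Without it the log2 differences were -0.33 for CENPE, -0.44 for AKAP9 and -0.43 for CEP290, and all 3 calls were lost, as they also were without either day 14 library.

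Others of the 12 lowest were LLPH, a nucleolar protein (-0.57), the repressor RESF1 (-0.52), SYNJ2BP of the mitochondrial outer membrane (-0.48), the ceramidase ACER3 (-0.47), the cytokinesis kinesin KIF20B (-0.47), LRRC58 (-0.44), the steroid reductase SRD5A1 (-0.40), the Rab escort protein CHML (-0.40) and IGFBP4, which binds insulin-like growth factors (-0.34). By CPM lost, the DNA damage kinase ATM (138 and 140 against 110 and 115 CPM; -0.30 ± 0.07) and the co-chaperone SUGT1 (129 and 125 against 98.8 and 104 CPM; -0.33 ± 0.07) were added. CENPE was the 1 of 30 mitosis genes that passed, and that list had a median of 0.03. None of the 19 calls downward held in each of the alternatives, against 48 of the 119 upward.

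Several structured non-coding RNAs also rose. Ribosomal RNA had been removed from these libraries by a depletion kit, so what is counted is the remainder. MT-RNR1 and MT-RNR2, the mitochondrial ribosomal RNAs, held 0.00782% and 0.00993% of the counts at day 3 and 0.0422% and 0.0515% at day 14. MT-RNR1 was at 28.3 and 36.5 CPM and then 166 and 201 CPM (2.55 ± 0.25; adjusted p = 2.4e-06). The 9 loci of 5.8S ribosomal RNA, near-identical copies whose reads can be shared, held 0.000289% and 0.00039% and then 0.00412% and 0.00429%. All 4 of those tested rose, by 3.53 to 4.06. So did 4 genes without a symbol, among them ENSG00000280800 (2.16) and ENSG00000280614 (2.19). The 5.8S loci and these 4 genes were singled out after their values were seen. By contrast, mitochondrial mRNAs held 6.48% and 6.21% at day 3 and 5.95% and 6.62% at day 14, and 0 of 13 passed.

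U1 small nuclear RNA, the part of the splicing machinery that pairs with 5′ splice sites, rose in 13 of 24 loci tested, by 0.78 to 0.94, and took 0.0822% and 0.0823% of counts at day 3 and 0.129% and 0.168% at day 14. Its copies share their sequence, so the 13 calls are not independent of each other. The U1 loci were grouped and counted after their values were seen. RNVU1-7 was at 75.4 and 74.3 CPM and then 123 and 159 CPM (0.93 ± 0.16; adjusted p = 0.00279). This call, like that of RNU1-3 (0.94 ± 0.17), was lost in DESeq2 and without day 14 replicate 2 or day 3 replicate 1. These shares moved with the same 2 days as the NF-kB targets, and their part in the other results was not tested.

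**Figure D4:**
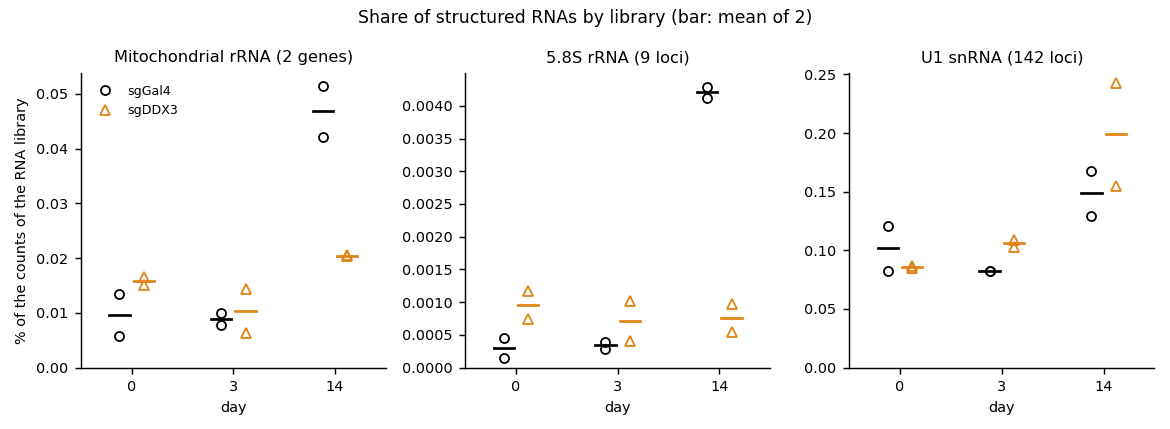
Share of the counts of each RNA-seq library (percent, linear axes that start at 0) in mitochondrial ribosomal RNA, 5.8S ribosomal RNA loci and U1 small nuclear RNA loci, by day; circles are sgGal4, triangles sgDDX3, bars the mean of 2 libraries. The sgGal4 circles of day 14 stand highest in the first 2 panels (0.0422% and 0.0515% for mitochondrial ribosomal RNA), while U1 is higher at day 14 with both guides.

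Ribosome footprints of the same guide and days are separate libraries and give a second measurement. There 112 of 19780 genes passed (0.566%), 54 higher (0.273%) and 58 lower (0.293%). Of the 58 that were lower 31 were copies of U2 small nuclear RNA, of 54 copies tested with a median of -0.79, and of the 54 that were higher 9 were U1 copies. Near-identical copies are not independent, and in RNA 0 of 15 U2 copies tested passed (median 0.29). The U2 copies, like those of U1, were grouped after their values were seen. Of the 119 genes that rose in RNA, 115 were tested in footprints, 104 had the same sign and 25 passed (21% of the RNA calls and 46.3% of the footprint calls upward), with a median of 0.51. Of the 19 that fell, 17 were tested, 11 had the same sign and 0 passed, with a median of -0.02. Most genes that rose in RNA thus had higher footprints too, and for the genes that fell no such shift was seen. The footprint count was 32 without day 14 replicate 2 and 20 without day 3 replicate 2, and the direction of most calls depended on the library: 84 of 103 were higher without day 14 replicate 1 and 76 of 87 lower without day 3 replicate 1.

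Footprints on NF-kB targets rose in 6 of 12 members and fell in 0, with a median of 0.79. The 12 include members that passed the RNA filter through their day 14 level alone. TNF, TRAF1, TNFAIP3 and CXCL8, among those that rose, were below 0.69 CPM in a day 3 RNA library. Of the 8 members at or above that level in both day 3 RNA libraries, NFKBIA and ICAM1 passed in footprints. TNF footprints were at 0.168 and 0.386 CPM at day 3 and 4.93 and 4.87 CPM at day 14 (4.19 ± 0.42; adjusted p = 0.000952). For NFKBIA they were at 59.8 and 54.2 CPM and then 94.0 and 84.1 CPM (0.64 ± 0.10; adjusted p = 0.0149). LTB went from 4.62 and 5.79 CPM to 23.0 and 17.5 CPM (1.98 ± 0.18; adjusted p = 0.000474). TRAF1, TNFAIP3, CXCL8 and ICAM1 passed too, and RELB did not (1.05; adjusted p = 0.0571). The calls of TNF, TRAF1 and LTB held without each footprint library. The median of the 12 list members was 0.86 without day 14 replicate 1 and 0.89 without day 14 replicate 2. Without day 3 replicate 1 it was 1.01, and without day 3 replicate 2 it was 0.66. Fewer members passed in each of these fits than in the main fit. With the replicate block 8 of the 12 passed, in a fit that called 69 genes higher in place of 54.

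Footprints relative to RNA, the translational efficiency, passed for 31 of 14853 genes (0.209%), of which 28 were lower (0.189%) and 3 higher (0.0202%), and for 0 of the 12 NF-kB targets (median -0.15, and 0.04 without footprint day 3 replicate 1). MT-RNR1 was among those that were lower (-2.77; adjusted p = 0.000434), since its RNA-seq counts rose and its footprint counts did not (16000 and 19500 against 16300 and 14200 CPM). For a ribosomal RNA this ratio does not measure translation. DGKE, a diacylglycerol kinase, had a higher ratio (1.03; adjusted p = 0.0163), with footprints at 15.5 and 16.7 CPM and then 24.5 and 30.4 CPM over an RNA level that did not pass (-0.28). The DGKE call was lost without footprint day 14 replicate 2 (0.88), footprint day 3 replicate 1 (0.98) or 2 (1.12), RNA day 14 replicate 2 (0.95), or RNA day 3 replicate 1 (1.06) or 2 (1.02). The count of 31 became 53 without footprint day 14 replicate 1, 18 without footprint day 3 replicate 2, 20 without RNA day 14 replicate 1 and 17 without RNA day 3 replicate 1.

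In the cells with sgDDX3, whose libraries are not shared with this comparison, more genes passed between the same days: 1019 of 18287 (5.57%), 568 higher (3.11%) and 451 lower (2.47%). Of the 119 genes that rose with sgGal4, 110 had the same sign with sgDDX3 and 68 passed (57.1% of them and 12% of the sgDDX3 calls upward). U1 loci, near-identical copies that are not independent, were 13 of the 119, and 12 of the 24 U1 loci tested rose with sgDDX3. Of the 19 that fell, 17 had the same sign, 3 passed in that direction and 1, OR2W6P, passed in the other. In these cells DDX3X itself went from 39.0 and 33.7 CPM to 134 and 101 CPM, so the days also differ in the level of the target there. The count of 1019 was 484 without sgDDX3 day 14 replicate 1, 2300 without sgDDX3 day 14 replicate 2 and 140 without sgDDX3 day 3 replicate 1.

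The NF-kB list rose with the other guide too, with a median of 0.76. Among the members that rose were TNF, TRAF1, TNFAIP3 and CXCL8, below 0.69 CPM in an sgGal4 day 3 library. The count that rose was 9 of 12. Without sgDDX3 day 3 replicate 1 it was 6 of 12. TNF was at 0.152 and 0.197 CPM at day 3 and 3.14 and 4.34 CPM at day 14 (4.44; adjusted p = 4.0e-06), and NFKBIA at 55.4 and 60.5 CPM and then 91.3 and 88.8 CPM (0.64; adjusted p = 9.0e-05). BIRC3 was at 3.20 and 1.68 CPM and then 3.23 and 5.79 CPM and did not pass. The test of the difference between the guides' changes passed for 30 genes (0.164%), 15 in each direction (0.082%), and for 0 of the 12 members, whose median difference was -0.30. That does not show that the guides act alike, because single values have wide errors: for TRAF1 the difference was -1.42 (adjusted p = 0.585). The count of 30 depended on single libraries. It was 60 and 339 without sgDDX3 day 14 replicate 1 and 2, and 10 and 77 without sgDDX3 day 3 replicate 1 and 2. It was 11 and 16 without sgGal4 day 14 replicate 1 and 2, and 13 without sgGal4 day 3 replicate 1.

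**Figure D5:**
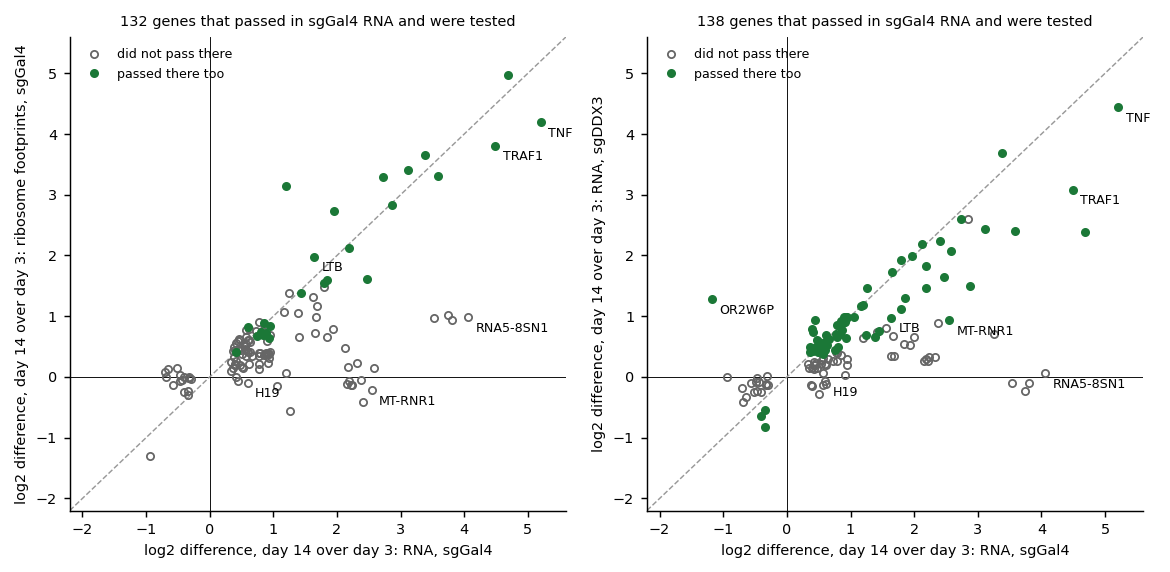
For the genes that passed in sgGal4 RNA, the log2 difference between day 14 and day 3 in footprints of the same guide (left, 132 genes tested) and in RNA of sgDDX3 cells (right, 138 genes) is set against that in sgGal4 RNA; filled points passed there too, and the dashed line marks equal values. TNF and TRAF1 are high on both axes of both panels, while MT-RNR1 in footprints and RNA5-8SN1 in sgDDX3 lie near or below 0 on the vertical axis.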

How the data were processed

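Cytosolic RNA and ribosome footprints of K562 cells were sequenced. For each assay the authors deposited 1 table of raw counts by gene, as whole numbers. Tools named in the submitters' processing notes, without role or order, are STAR 2.7.5a, Bowtie2 2.4.1, cutadapt 3.4 and DESeq2, with the build GRCh38. How reads were counted (tool, annotation, strand, several alignments) is not given in the sources used here, so values of overlapping, antisense and near-identical genes are uncertain. The 45 rows for Y copies of pseudoautosomal genes were left out, which left 57992 genes, of which 71.5% had a symbol. Libraries held 10266619 to 43256563 counts (RNA) and 6223963 to 15240512 counts (footprints). A count of 0 allows up to 3 counts, which is 0.0694 to 0.289 CPM in the 4 libraries and covers counting error only.

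With R 4.3.3 and edgeR 4.0.16, counts were filtered (filterByExpr, minimum count 10), scaled (trimmed mean of M values, each assay apart) and tested by the quasi-likelihood F-test with all 12 libraries of an assay in 1 fit (all 24 for translational efficiency), since a spread cannot be estimated well from 2 libraries. In RNA the common coefficient of biological variation came to 6.13%. P-values were adjusted by Benjamini-Hochberg over all genes tested, and a gene passed, and is said to have risen or fallen, at an adjusted p under 0.05. Log2 differences are given with their standard error (SE). The script was tested on simulated data. Alternatives were DESeq2 1.42.0 (test and scaling), no filter, the replicate number as a block, a newer version of the fit, the libraries of 1 guide, a test against a fold of 1.2 and each library left out. Pairs of libraries in the text are replicates 1 and 2, which are not known to share more than a number.

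Named were DDX3X; the 12 top and 12 bottom log2 differences among genes that passed, had a symbol, averaged 10 CPM or more and did not overlap between days; the 5 top and 5 bottom by CPM; and in each list the 4 smallest p at most (5 each way in other comparisons). Of the 12 highest, 5 were U1 loci, of which RNVU1-7 and RNU1-3 stand for the others, RNVU1-18, RNVU1-28 and RNVU1-29. Some genes that the rule names are not reported here. The gene lists and this comparison were chosen with earlier results of these data known. Genes added after their values were seen are marked as such. Promoters are RefSeq entries of GRCh38.p14, and where a gene had several entries the match was counted if any of them held it.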

Additional observations from a re-analysis of the deposited data

Results flagged for a closer look

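The change from day 3 to day 14 differed between the guides, by the test of the difference itself in edgeR, for 9 named genes that passed with sgGal4. The 4 tested loci of 5.8S ribosomal RNA rose with sgGal4 and did not pass with sgDDX3. For RNA5-8SN1 the change with sgDDX3 was 0.06 against 4.06 with sgGal4, a difference of -4.00 on the log2 scale (adjusted p = 0.00011), and this call held in all 13 alternatives. For RNA5-8SN2 (-3.97; adjusted p = 0.00353), RNA5-8SN3 (-3.91; adjusted p = 0.00146) and the locus named 5_8S_rRNA (-3.62; adjusted p = 0.00353) it was lost without sgDDX3 day 3 replicate 1 or sgGal4 day 3 replicate 1, and for the first and the last also in DESeq2. The imprinted RNA H19 rose with sgGal4 (0.60) and was at -0.07 with sgDDX3, a difference of -0.67 (adjusted p = 0.00353) that was lost without sgGal4 day 14 replicate 1 or sgGal4 day 3 replicate 1.

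The semaphorin receptor PLXNA1 (-0.55; adjusted p = 0.0189), the microtubule-binding CLIP2 (-0.71; adjusted p = 0.0209) and EHD2, a protein of caveolae (-0.78; adjusted p = 0.0478), were higher at day 14 with sgGal4 and did not pass with sgDDX3. The pseudogene OR2W6P fell with sgGal4 (-1.17) and rose with sgDDX3 (1.28), a difference of 2.45 (adjusted p = 0.0209). These 4 calls were each lost without sgDDX3 day 3 replicate 1, without either sgGal4 day 14 library and without sgGal4 day 3 replicate 1. Those of PLXNA1, CLIP2 and EHD2 were also lost without sgGal4 day 3 replicate 2, those of OR2W6P and EHD2 without sgDDX3 day 14 replicate 1, and that of EHD2 with the replicate block (adjusted p = 0.0754). With 2 libraries a group, no library was examined as an outlier, and no cause of the differences was tested.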

How the results depend on the processing

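The RNA count of 138 was 244 without the low-count filter, 764 with the sgGal4 libraries alone, 69 against a fold of 1.2, and 65 to 81 with 1 library left out; it stayed within 1.5 times otherwise (139 with the other scaling, 107 in DESeq2, 154 in the newer fit). With the replicate block it was 117. The footprint count of 112 was 195 in DESeq2, 692 without the filter, 312 with the sgGal4 libraries alone, 142 with the replicate block and 20 to 103 with 1 library left out. That of translational efficiency, 31, was 100 without the filter, 55 with the sgGal4 libraries alone, 38 with the replicate block and 17 to 53 with 1 library left out. The sgDDX3 count of 1019 was 293 with the sgDDX3 libraries alone, 845 with the replicate block and 140 to 2300 with 1 library left out. The difference between the guides, 30, was 119 without the filter, 22 with the replicate block and 10 to 339 with 1 library left out. The cause of these moves was not tested. None of the 138 genes changed sign in RNA under these alternatives, while the balance of footprint calls and the median efficiency of the NF-kB targets turned with single libraries. Of the NF-kB targets 8 to 10 passed in RNA in every alternative, and the list's median ranged from 1.03 to 1.25. Replicate numbers are not known to pair libraries. The differences of replicate 1 from 2 had a correlation over 9987 genes of 0.00 between sgGal4 day 3 and day 14, of 0.36 between the guides at day 14, 0.19 between them at day 3 and -0.48 between sgDDX3 day 3 and day 14, and the block moved no count by more than 1.5 times. When a library was left out, the lone library of that day was taken to vary like the other groups. RNAs that the low-count filter (0.69 CPM) removed were not tested in the counts reported.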
